A study of Mus musculus with 2 samples.

Results

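The Toll-like receptor adaptors and IRAK kinases were taken as 10 genes chosen by name: the TIR-domain adaptors Myd88, Tirap, Ticam1 and Ticam2, the kinases Irak1, Irak2, Irak3 and Irak4, and the ubiquitin ligases Traf3 and Traf6. The rule names genes and uses no measured value, although earlier results of these data were known when they were chosen. They were represented by 16 probes in 25 spots, and 9 of the 10 genes were measured well above background on both arrays, out of 12419 such genes in all. Ticam2 was above background on 1 array only.

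The cells were bone marrow-derived macrophages (BMDM), which are macrophages grown out of mouse marrow in culture. The marrow cells were grown for 5 days with M-CSF, the macrophage growth factor, supplied as CMG14-12 culture medium, and were then given 100 ng/ml lipopolysaccharide (LPS), the bacterial ligand of TLR4, for 5 hours. The 2 genotypes were c-Maf+/-, which keeps 1 intact copy of the transcription factor gene Maf, and c-Maf-/-. Both groups received M-CSF and LPS, so neither an unstimulated culture nor a c-Maf+/+ culture was compared. The labels do not give the strain, age or number of the animals, the part of Maf that was removed, or whether cultures were pooled. Each genotype was measured on 1 one-colour Agilent array, both on the same slide, so no difference had a replicate check and no test was made. Precision was limited by this number of arrays.

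Toll-like receptors and IL-1 family receptors share a cytoplasmic TIR domain that recruits adaptors. MyD88, reached directly or through TIRAP, gathers IRAK4, then IRAK1 and IRAK2, which engage TRAF6, a ligase whose ubiquitin chains activate the TAK1 and IKK kinases and so NF-kB. From endosomes, TLR4 also signals through TICAM2 (TRAM) and TICAM1 (TRIF) to TRAF3 and the kinases that induce interferon beta. IRAK3 (IRAK-M) lacks effective kinase activity and restrains the pathway in macrophages, where LPS is known to induce it.

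Each value rests on 60-base probes, and sequences are shown for those that the results turn on, namely those of Myd88, Tirap and Irak3, which have 1 probe each, the coding Irak2 probe, the Traf6 pair, whose probes differed from each other, and an Irak4 probe on an exon junction. Coordinates are those of the array design, build mm9, with the strand of the transcript. Sequences run 5′ to 3′ and are cut to the first 30 bases, except for 2 probes whose letters translate into known IRAK protein, which are whole and called coding. The files do not give the exon or UTR in which a probe lies.
Myd88, chr9:119245322-119245381, minus strand: ggtttgcatcttcttattcctttcacgttc
Tirap, chr9:34994936-34994995, minus strand: cagagatgtcaactcacctcacaaaactgg
Irak3, chr10:119578999-119579058, minus strand: ttaccaccggcacttaatgctagtctttct
Irak2, coding, chr6:113643695-113643754, plus strand: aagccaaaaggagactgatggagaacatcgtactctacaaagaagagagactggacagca
Irak4, coding, chr15:94384447-94385174, plus strand: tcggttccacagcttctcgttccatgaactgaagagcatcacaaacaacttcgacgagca
Traf6, curated transcript, chr2:101540660-101540719, plus strand: ttaactatcgaggtgattcttacttaagac
Traf6, cDNA clone, chr2:101519206-101519265, plus strand: ttcccctgtccggggaaggaaatcgcctgc

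The Irak4 probe spans 728 genomic bases for its 60 bases of transcript, so it crosses an intron and reads spliced RNA. A second Irak2 probe, downstream at chr6:113644904-113644963 on the plus strand, shares its bases 1 to 18 with 3 other probes on the array, for 2810417H13Rik, Hist1h4i and Timmdc1. The search covered both strands and stretches of at least 16 bases among the probes of the array, and whole transcripts were not searched. One Irak4 probe, 2 Irak1 probes and the Traf3 probe each shared such a stretch with 1 other probe, and the remaining probes of the members with none. For the Traf3 probe, chr12:112505252-112505311 on the plus strand, the partner was a Gstp2 probe whose difference was 0.17.

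Processed signal is the scanner software's background-subtracted brightness of a spot. Differences are given as log2 of the signal in c-Maf-/- over that in c-Maf+/-, after each array was divided by its own 75th percentile, which was 291 in c-Maf+/- and 296 in c-Maf-/-. A positive difference is thus a higher level in c-Maf-/-. A gene's value is the mean over its probes that were well above background on both arrays, a call the scanner software makes for each spot. The software's own error estimates gave about 0.20 for the log2 difference of a single-spot probe of ordinary brightness. Differences were taken only within a probe, since probes differ in efficiency. The summed signals given for marker lists add the unscaled readings of all their measured probes on an array, so bright probes weigh most.

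Of the 62976 spots on each array 59305 were not controls, and the scanner called 45.3% of these well above background in c-Maf+/- and 44.9% in c-Maf-/-. The Maf probes went with the labels, at 15101 in c-Maf+/- against 12.6 in c-Maf-/- for the brighter one, at least 636-fold lower. Over all 12419 genes the median difference was -0.02, with an SD of 0.41 over genes. All 8 macrophage markers were measured (5 lower and 3 higher in c-Maf-/-, median -0.21, with Csf1r turning under 4 alternatives), and their summed signal was 441770 and 461980. Mertk, an engulfment receptor, was the one past 2-fold (271 and 73.5, -1.91). All 8 neutrophil markers were lower in c-Maf-/- (median -0.82, summed signal 101820 against 56419), although Elane turned under 2 other scalings. Past 2-fold among them were Ngp (-1.45), Ltf (-1.41), Mpo (-1.21) and S100a9 (-1.01), the last 2 inside 2-fold under some alternatives. Of 7 dendritic cell markers 5 were measured (median -0.05, summed 44243 and 46371). Siglech made up most of these sums (41554 and 43949), while Itgax (275 and 131, -1.09, inside 2-fold under 3 alternatives) and Zbtb46 (295 and 198, -0.60) were lower in c-Maf-/-. Of 6 lymphocyte markers 2 were measured (summed 1028 and 1171), and of 4 erythroid markers 1 (summed 30.7 and 55.4). Cd3g, Ms4a1, Ncr1, Hbb-b1 and Alas2 were not well above background on either array. In bulk RNA, fewer cells of a type and less RNA per cell cannot be told apart, and the part of other cells in the members' differences was not tested.

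Across the 9 measured members, differences ran from -0.37 (Myd88) to 0.63 (Irak3), and 6 genes were higher and 3 lower in c-Maf-/-. Their median was 0.13 against -0.02 for all genes, where 46.3% of genes lay above 0. Their median absolute difference was 0.33 against 0.18. No member was 2-fold different, beside 1.43% of all genes higher by at least 2-fold and 1.74% lower by at least 2-fold. One member, Irak3, was at least 1.5-fold higher, beside 5.37% of all genes, and none was at least 1.5-fold lower, beside 6.51%. With 9 genes measured, 1 past that line gives no result about the set.

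**Figure D1:**
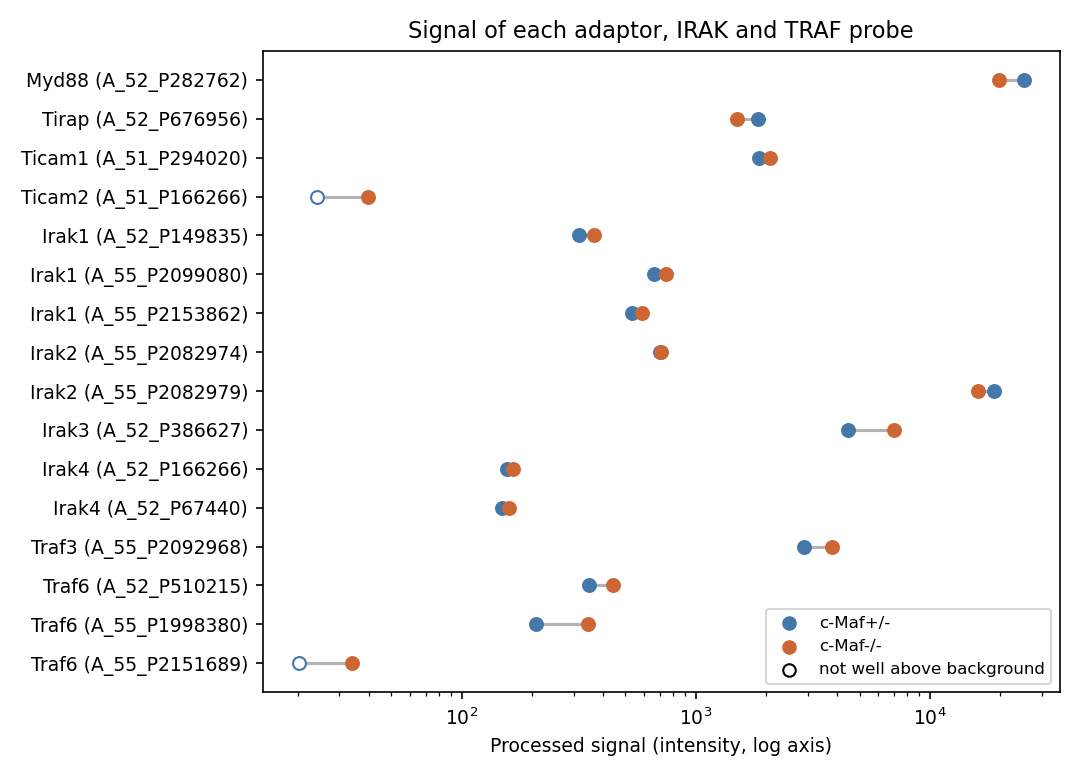
Processed signal (log axis) of each of the 16 probes of the 10 genes on the c-Maf+/- array (blue) and the c-Maf-/- array (orange), with open circles where the spot was not well above background. The pairs lie close together; the Irak3 probe and one Traf6 probe are the widest apart among probes measured on both arrays, and the Ticam2 probe and another Traf6 probe were measured on c-Maf-/- only.

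Among the adaptors, Myd88 and Tirap, the pair that serves the surface receptors, were both lower in c-Maf-/-. Myd88, the adaptor common to nearly all Toll-like receptors and to the IL-1 receptors, was printed in 10 spots. In c-Maf+/- the lowest, median and highest spot were 23941, 25314 and 26021 (mean 25092, SD 886), and in c-Maf-/- they were 17878, 19900 and 20527 (mean 19758, SD 767). The 2 sets of spots did not overlap, and every spot was brighter on the c-Maf+/- array. Spot differences ran from -0.46 to -0.29, with a mean of -0.37 (1.29-fold lower) and an SD of 0.06. These spots share 1 labelled RNA per array, so their SD measures spotting and scanning only and is no biological error. By way of scale, 215 probes with at least 8 spots had a median SD of 0.07, and a difference as low as that of Myd88 or lower was found in 13.9% of genes.

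**Figure D2:**
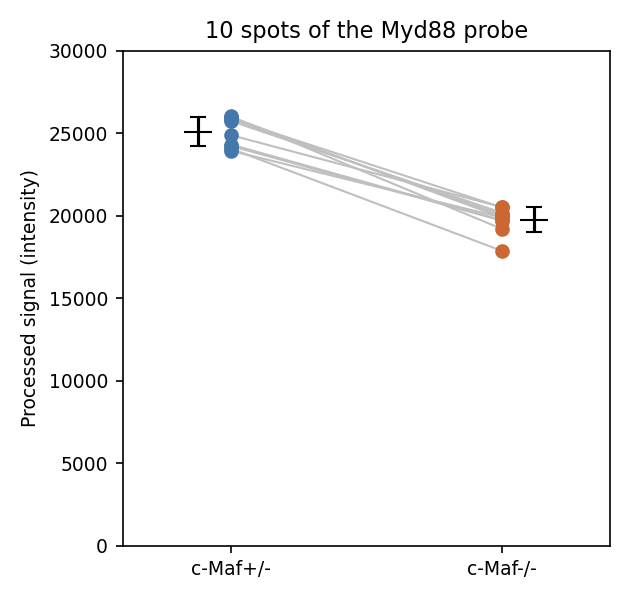
Processed signal of the 10 Myd88 spots on each array, with lines joining spots at the same position and the mean and SD over spots beside them. The c-Maf-/- spots reach 20527 at most and the c-Maf+/- spots start at 23941, so the sets are apart, although they are repeated readings of 1 RNA per genotype.

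Tirap, the bridging adaptor that brings MyD88 to TLR4 and TLR2, read 1850 and 1496, again with c-Maf+/- first, a difference of -0.33 (1.26-fold lower, scanner error 0.20). Under the background and scaling alternatives, the only ones that could change their values, both of these adaptors kept their sign. Myd88 lay between -0.37 and -0.22 and Tirap between -0.31 and -0.19. The ends nearest 0 came from scaling on spike-in transcripts, which moved all genes upwards together.

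The TRIF branch adaptors did not share that direction. Ticam1 (TRIF), the adaptor of TLR3 and of endosomal TLR4, read 1861 and 2067, c-Maf+/- first, at chr17:56409265-56409324 on the minus strand, a difference of 0.13 (1.09-fold), which is smaller than its scanner error of 0.20. Ticam2 (TRAM), which couples TLR4 to TRIF, read 24.1 in c-Maf+/-, not well above background, and 39.8 in c-Maf-/-. After scaling it was 1.62-fold higher in c-Maf-/-, or 0.70 in log2, with a scanner error of 0.40. For probes dim on 1 array, a bound sets the measured spot against the higher of 2 values. These are the dim spot and the lowest signal well above background on its array, 22.3 in c-Maf+/- and 24.2 in c-Maf-/-. The dim Ticam2 spot was above that lowest signal, so its value is the plain ratio of the readings and no bound.

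Among the kinases, Irak3 differed most. Irak4, the kinase that first joins MyD88, read 156 in c-Maf+/- and 166 in c-Maf-/- with the intron-crossing probe, and 148 and 158 with a second probe at chr15:94397743-94397802 on the plus strand. Their differences of 0.06 and 0.07 averaged 0.07 (1.05-fold) and were within the scanner error of 0.15.

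Irak1, which IRAK4 activates and which then hands the signal to TRAF6, lies on the X chromosome and had 3 probes on the minus strand. They read 318 and 368 at chrX:71262475-71262534, 664 and 746 at chrX:71259533-71259592, and, for a transcript variant, 533 and 589 at chrX:71260779-71260838, in each case with c-Maf+/- first. All 3 probes were higher in c-Maf-/-, by 0.12 to 0.19 (mean 0.15, SD over probes 0.03, 1.11-fold), close to the scanner error of 0.12. Sex-linked genes, looked at after their values had been seen, differed between the arrays. The 2 Xist probes read 263 and 115 in c-Maf+/- and were not well above background in c-Maf-/- (5.43 and 6.25). The Y-linked Ddx3y and Eif2s3y were measured on both arrays and were higher in c-Maf-/- by 0.50 and 0.64. The dimmer probes of Uty, also Y-linked, were higher by 0.09 and 0.37. The sex-linked readings thus differ together with genotype for every member, and their part in the differences of Irak1 or of any other member was not tested.

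Irak2, which sustains signalling and induced transcription after the first hours, had 2 probes that gave differences of unequal size. The coding probe read 704 and 709, a difference of -0.02 after scaling. The downstream probe read 18700 and 16014, a difference of -0.25. Their mean was -0.13 (1.10-fold lower, SD over probes 0.17). It was -0.02 without the probe that shares bases with other genes' probes, and turned to 0.01 with spike-in scaling. The 3 other probes that hold that stretch had differences of -0.32 to -0.02. What the shared bases add to the signal was not tested, and the direction of Irak2 was not settled by these arrays.

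Irak3 (IRAK-M), the inhibitory member, read 4470 in c-Maf+/- and 7027 in c-Maf-/-, a difference of 0.63 (1.54-fold higher). Its scanner error was 0.20, and 95.4% of all genes had a lower value. Under the background and scaling alternatives, the only ones that could change its value, the difference lay between 0.63 and 0.77. The value rests on 1 spot per array, and no other probe of the gene was on the array to set beside it.

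**Figure D3:**
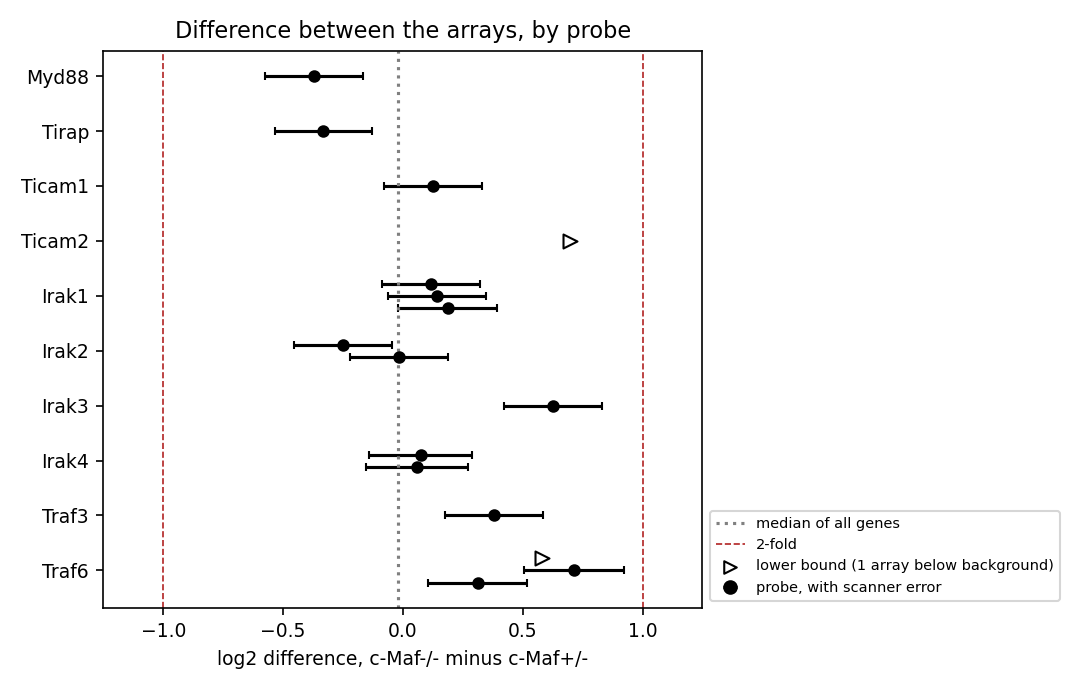
Log2 difference, c-Maf-/- minus c-Maf+/-, of each probe with the scanner's error, beside the median of all genes (dotted) and the 2-fold lines (dashed). Triangles, labelled lower bound, mark probes not well above background in c-Maf+/-. The Traf6 triangle is a lower bound and the Ticam2 triangle is the plain ratio of its readings. No probe reaches the 2-fold lines, and the Irak3, Traf3 and Traf6 probes lie above 0 by more than their error while those of Myd88 and Tirap and the downstream Irak2 probe lie below it by more than theirs.

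Both TRAF members were higher in c-Maf-/-. Traf3, the ligase of the interferon-inducing branch and a brake on MAP kinase signalling at the membrane, read 2885 in c-Maf+/- and 3818 in c-Maf-/-, a difference of 0.38 (1.30-fold higher, scanner error 0.20). It lay between 0.37 and 0.53 under the alternatives. The value of 0.17 for the Gstp2 probe that shares bases with it went in the same direction.

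Traf6, the ligase on which the MyD88 branch converges, had 3 probes that differed in size but not in direction. The probe for the curated RefSeq transcript read 349 and 442, a difference of 0.31. The probe designed on a cDNA clone read 208 and 347, a difference of 0.72. A probe designed on a predicted Ensembl transcript, at chr2:101526308-101526367 on the plus strand, read 20.2 (not well above background) and 34.0. Its lower bound was 1.496-fold higher, just under the 1.5-fold line. The log2 difference of its readings had a scanner error of 0.45. The mean of the measured pair was 0.51 (1.43-fold higher, SD over probes 0.29), and 14.0% of the 3452 genes with at least 2 measured probes had a spread at least as wide. Which transcripts the clone-based probe reads was not tested, and with the curated target alone Traf6 stood at 0.31.

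**Figure D4:**
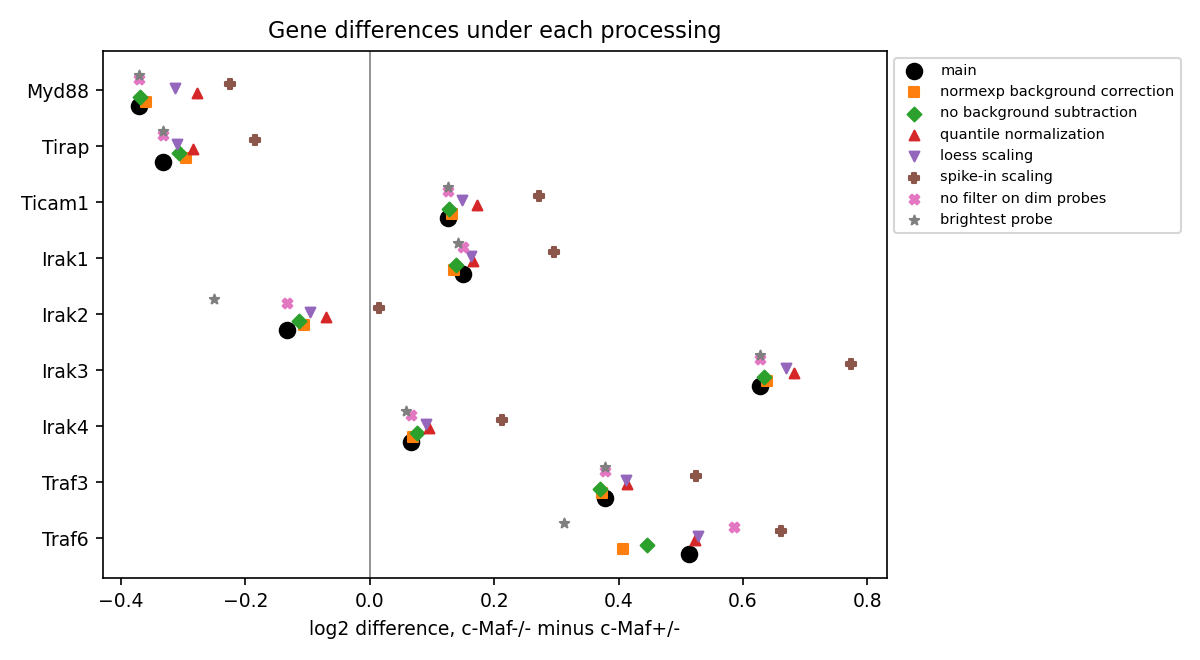
Log2 difference of the 9 measured genes under the main processing (black) and the alternatives. Not drawn are the alternative limited to genes with at least 2 probes and those added after seeing the data. Irak3, Traf3 and Traf6 stay above 0 and Myd88 and Tirap below it throughout, while Irak2 crosses to 0.01 with spike-in scaling and Traf6 ranges from 0.31 to 0.66.

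The other genes of the pathway were read from lists, and each list is described by its counts and median. Over all genes, 46.3% lay above 0 and 53.7% below it, with a median of -0.02, and the shares past each fold are those given above for the members. Among 19 receptors and LPS co-receptors 15 were measured, 4 higher and 11 lower in c-Maf-/- (5 and 10 with spike-in scaling, where Tlr9 turned), with a median of -0.38. Past 2-fold lower were 2 of the 15, against 1.74% of all genes: Tlr1, the TLR2 partner for triacylated lipopeptides (2561 in c-Maf+/- and 1117 in c-Maf-/-, -1.22), and Cd180, a TLR4-like receptor (896 and 397, -1.20). Tlr3, the double-stranded RNA receptor that signals through TRIF alone, followed (1042 and 651, -0.70). Tlr4 itself, named because LPS was the stimulus, read 685 and 458 (-0.61), a difference that ranged from -0.61 to -0.26 over the alternatives. Of the LPS co-receptors, Cd14 went the other way (71344 and 100110, 0.46), while Ly96 was lower (4010 and 2864, -0.51). Upstream of the adaptors, the receptor list thus had a lower median than the adaptors and kinases, on the same arrays and with no test of the difference.

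Of the IL-1 family receptors that use MyD88, only Il1rap was measured on both arrays (-0.19, turning to 0.32 without the filter on dim probes). Among 14 genes of the ubiquitin, TAK1 and IKK step 12 were measured, 5 higher and 7 lower, with a median of -0.02 and none past 2-fold. The farthest from 0 were Map3k8 (TPL2), the kinase that links IKK to ERK (2625 and 1607, -0.73), and Peli1, a ubiquitin ligase that acts with IRAK proteins (22820 and 14047, -0.73). Tab2, an adaptor of TAK1, was next at -0.49. The median of this list turned to 0.04, 0.01 and 0.12 with quantile, loess and spike-in scaling.

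All 12 TRIF branch kinases and partners were measured, 6 higher and 6 lower, with a median of -0.01. Tbkbp1, a binding partner of TBK1, was the farthest from 0 (3234 and 5741 for its brightest probe, 0.74 over 3 probes), followed by Tank (-0.32) and Tbk1 (-0.26). The other TRAF genes had 8 of 9 measured, 4 on each side of 0, with Traip at 0.53 (0.24 to 0.67 over the alternatives), Traf2 at -0.47 and Traf3ip3 at 0.44 (0.22 to 0.59). Among 18 negative regulators 16 were measured, 5 higher and 11 lower, with a median of -0.13. Dusp1, a MAP kinase phosphatase (13043 and 7757, -0.78), Socs1, an inhibitor of cytokine signalling (9768 and 6572, -0.60), and Nlrx1 (0.50) were the farthest from 0. Irak3, the inhibitory kinase, was thus higher in c-Maf-/- while most measured genes of that list were lower. With spike-in scaling these last 3 lists had medians above 0, at 0.13, 0.14 and 0.01. The TRIF branch median also turned with quantile (0.04) and loess scaling (0.02), as did that of the other TRAF genes (0.06 and 0.03).

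Response genes of the 2 branches were set side by side. The 10 genes chosen as MyD88-dependent were split 5 and 5 with a median of 0.06. At least 1.5-fold higher were 4 of them (3 under the background alternatives), against 5.37% of all genes. At least 1.5-fold lower was 1, against 6.51% of all genes. The neutrophil chemokine genes Cxcl1 (249 in c-Maf+/- and 1010 in c-Maf-/-, 1.99) and Cxcl2 (2527 and 5654, 1.14) were past 2-fold higher, and Nfkbiz, an NF-kB cofactor (1941 and 863, -1.20), was past 2-fold lower. The 10 genes chosen as TRIF-dependent were all lower in c-Maf-/-, where 53.7% of all genes were, with a median of -0.72, although Ccl5 turned with quantile, loess and spike-in scaling and Isg15 with the last. Of the 10, 7 were at least 1.5-fold lower (4 with spike-in scaling), against 6.51% of all genes. They included Ifit2, an antiviral effector (72739 and 36620, -1.02, and inside 2-fold with those 3 scalings), Irf1 (-0.99, and -0.63 at the least) and Ifnb1, interferon beta itself (317 and 166, -0.95). The measured TRIF branch members Ticam1 and Traf3 had the opposite sign (0.13 and 0.38), although that of Ticam1 was smaller than its scanner error of 0.20. Such lists overlap in biology, since many genes answer to both branches, and whether the members' differences bear on them was not tested.

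**Figure D5:**
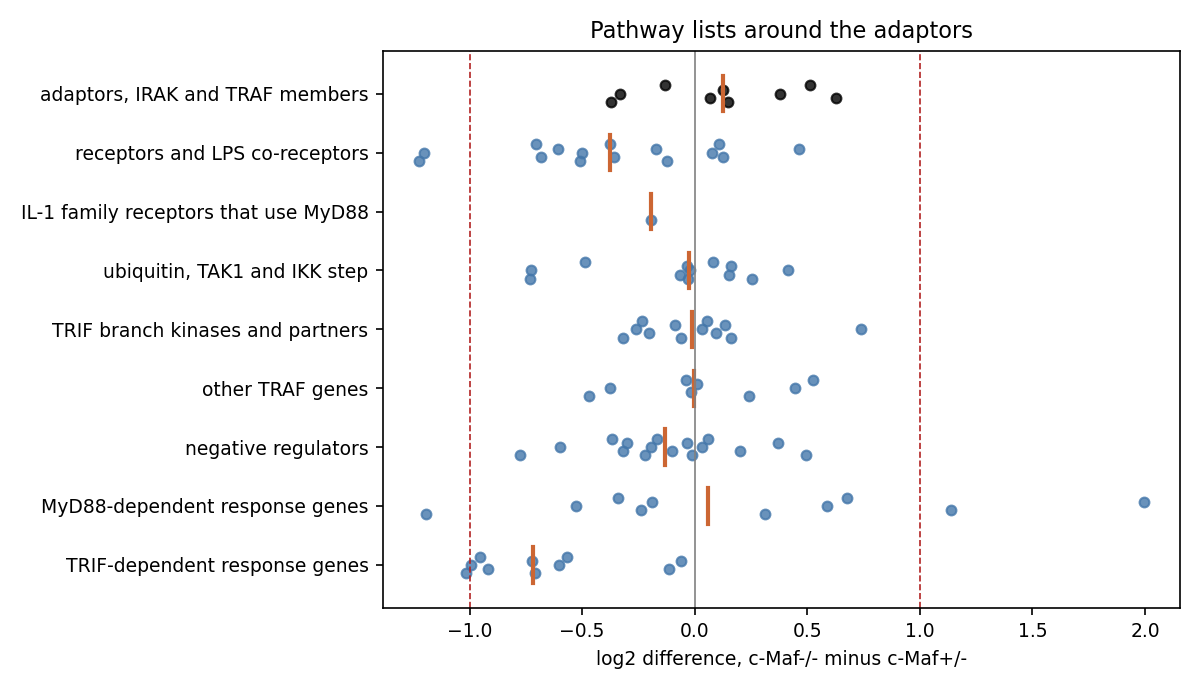
Log2 difference of each measured gene by list, with the list's median as an orange bar and the 2-fold lines dashed. The adaptor, IRAK and TRAF genes lie between -0.37 and 0.63, while the receptor list reaches -1.22, the MyD88-dependent list reaches 1.99 and the 10 TRIF-dependent genes all lie below 0.

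Promoter sequences of 9 of the 10 genes were found in the RefSeq table for build GRCm38.p6, as 12 promoters running from 250 bases before to 50 after a start site. They are shown for Irak3 and Myd88, the members with the highest and lowest differences, as the 250 bases upstream of the start. Capitals mark motif matches, which were searched on both strands: TGCTGA (a Maf half-site), TGANTCA (AP-1), GAAANNGAA (interferon response), CCAAT and the NF-kB motif. A promoter was counted once per motif, and no shown matches overlap.
Irak3, outer start, GRCm38.p6 chr10:120202131-120202380, minus strand: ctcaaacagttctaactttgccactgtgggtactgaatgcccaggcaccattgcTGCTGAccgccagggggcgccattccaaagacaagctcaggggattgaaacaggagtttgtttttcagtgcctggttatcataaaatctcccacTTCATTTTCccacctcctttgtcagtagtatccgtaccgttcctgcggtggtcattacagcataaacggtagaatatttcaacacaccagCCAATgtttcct
Myd88, GRCm38.p6 chr9:119340019-119340268, minus strand: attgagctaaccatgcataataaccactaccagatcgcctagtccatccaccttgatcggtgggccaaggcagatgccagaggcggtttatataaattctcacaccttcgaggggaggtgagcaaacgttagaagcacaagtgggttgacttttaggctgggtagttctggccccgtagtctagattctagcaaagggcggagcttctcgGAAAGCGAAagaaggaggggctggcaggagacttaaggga

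The Irak3 promoter at its outer start held TGCTGA at position -196 from the start, an interferon response match on the other strand at -102 and CCAAT at -12. TGCTGA was in 1 of the 12 member promoters and in 19.5% of all 32851 promoters in the table. The Myd88 promoter held GAAAGCGAA at -40. Matches of this kind were in 2 of the 12 and in 8.56% of all promoters. CCAAT was in 2 of the 12 (Irak3 and Irak4) against 37.4% of all. The NF-kB motif was in 3 of the 12 against 8.46%, with GGGGATTTCC at -10 in Traf3. The other 2 were overlapping promoters of Irak1, in which the same GGGACGCCCC site, at -18 and -21, was counted for each. TGANTCA was in none of the 12 and in 7.81% of all. The member promoters had a median GC content of 60.5% and 20.5 CpG sites, against 52.7% and 7 over all promoters, with Traf3 at 84.0% and 59. The outer Irak3 promoter stood at the other end with 46.7% and 8 CpG. A second Irak3 promoter, with its upstream bases at chr10:120201598-120201847, had 67.3% and 26 CpG and held none of the 5 motifs. These matches are descriptions of sequence and no binding was measured.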

How the data were processed

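Total RNA (50 ng, Cy3, per the labels' protocols) was read on 1 array per genotype. Per the file headers, the authors' deposited scanner output was made with Agilent Feature Extraction 10.7.3.1 (protocol GE1_107_Sep09, array design 028005, build mm9) and holds spot intensity, background-subtracted within each array and not scaled between arrays, with flags of 0 or 1 as other values. From these intensities, control and outlier-flagged spots were dropped, log2 processed signal was centred on each array's 75th percentile, spots were averaged per probe and probes well above background on both arrays were averaged per gene. Gene names were matched to RefSeq for 31817 probes (22615 names).

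With 1 array per genotype no test was made. The 8 alternative processings were normexp background correction (offset 50), no background subtraction, quantile, loess (span 0.3) and spike-in scaling (8 transcripts), no filter on dim probes, the brightest probe, and genes with at least 2 probes. Another 2 were added after seeing the data. The members and the gene lists were chosen with earlier results of these data known. Genes named were the 10 members, Maf and, in each pathway list, the 3 farthest from 0 and any past 2-fold. Named after their values were seen were the sex-linked genes, Tlr4, Cd14, Ly96, the cell type markers, genes that turned under an alternative and genes whose probes share bases with a member's. The averaging of probes into genes was tested on simulated differences, and the scaling steps were not tested in that way. R 4.3.3, limma 3.58.1, Python 3.11.15, pandas 2.3.3 and numpy 2.4.6 were used. The sequence of the downstream Irak2 probe is not reported here.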

Additional observations from a re-analysis of the deposited data

How the results depend on the processing

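Only the background and scaling alternatives could change the value of a member with 1 bright, curated probe, so the others are no check of it. Under 8 alternative processings and 2 added ones, 8 of the 9 measured members kept the direction of their difference wherever it could be computed. Irak2 was the exception, at -0.13 in the main processing and 0.01 with spike-in scaling. That scaling rests on 8 transcripts (mean -0.15, SD 0.05), moved the median of all genes from -0.02 to 0.12, and gave the members a median of 0.27 with 2 of them at least 1.5-fold different (Irak3 and Traf6). It adds 1 constant to all genes, so it cannot change how far the members' median lies above that of all genes (0.15), which was 0.07 without the filter on dim probes. No member was 2-fold different under any of these alternatives. Without the filter on dim probes 3 of 10 members were at least 1.5-fold different, since Ticam2 and a dim Traf6 probe then entered. Among genes with at least 2 measured probes the count was 0, because Irak3 has 1 probe and only 4 members qualified. The added alternatives, chosen after seeing the data, gave -0.02 for Irak2 without its probe that shares bases with other probes and 0.31 for Traf6 from its curated target alone. No paired analysis was possible because each genotype has 1 array, and for the same reason no replicate could be left out. Genotype, array and the sex-linked readings cannot be told apart. Signal near background limits the third Traf6 probe to a lower bound and Ticam2 to a plain ratio with a scanner error of 0.40. Single-spot probes (Tirap, Ticam1, Irak3, Traf3) are limited to the scanner's own error.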
